A study of Mus musculus with 6 samples.

Results

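Matrix metalloproteinases and their tissue inhibitors were examined in mouse embryonic fibroblasts that had been starved for 6 h. Such fibroblasts are connective tissue cells taken into culture from an embryo, and the labels call these wild type. The group holds 10 genes, named by symbol: the metalloproteinases Mmp2, Mmp3, Mmp9, Mmp11, Mmp13 and Mmp14, the related protease Adamts1, and the inhibitors Timp1, Timp2 and Timp3. All 10 were measured, by 21 of the 20380 probe sets that the platform annotation assigns to exactly 1 gene, among 12393 genes in all. RNA of starved cells was hybridised to 3 short-oligonucleotide arrays and RNA of control cells in normal medium to another 3. The labels do not state which nutrients or serum components were withdrawn, and they give no passage or embryo of origin. The arrays of a group are called biological replicates without mention of separate cultures, so p-values rest on a spread between arrays that may be technical.

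Matrix metalloproteinases are zinc-dependent enzymes that cut collagens, proteoglycans and other proteins outside the cell. They are made as inactive precursors, and tissue inhibitors of metalloproteinases, the Timp proteins, bind the active site of the mature enzymes. Fibroblasts are a main source of both, and the balance between them sets how fast connective tissue matrix is broken down.

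Values are log2 array signals, so a difference of 1 is a 2-fold change, and differences are starved minus control. Of the 10 genes, 4 were higher in starved cells (Timp1, Timp2, Mmp2 and Mmp11), 3 were lower (Mmp3, Mmp13 and Adamts1) and 3 did not pass an adjusted p of 0.05 in limma (Mmp9, Mmp14 and Timp3). Across all genes 44.1% passed, 22.1% higher and 22.0% lower. The median difference of the 10 genes was 0.0015, against -0.048 for all genes. The arrays of the groups did not overlap for 9 of the 10 genes, against 54.0% of all genes. The plot of members by array shows falls in the proteases Mmp3, Mmp13 and Adamts1 and rises in the proteases Mmp2 and Mmp11. Of the inhibitors, Timp1 and Timp2 rose and Timp3 did not pass. The rise of Timp2 is that of its brightest probe set, and 4 of its 6 probe sets did not pass.

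**Figure D1:**
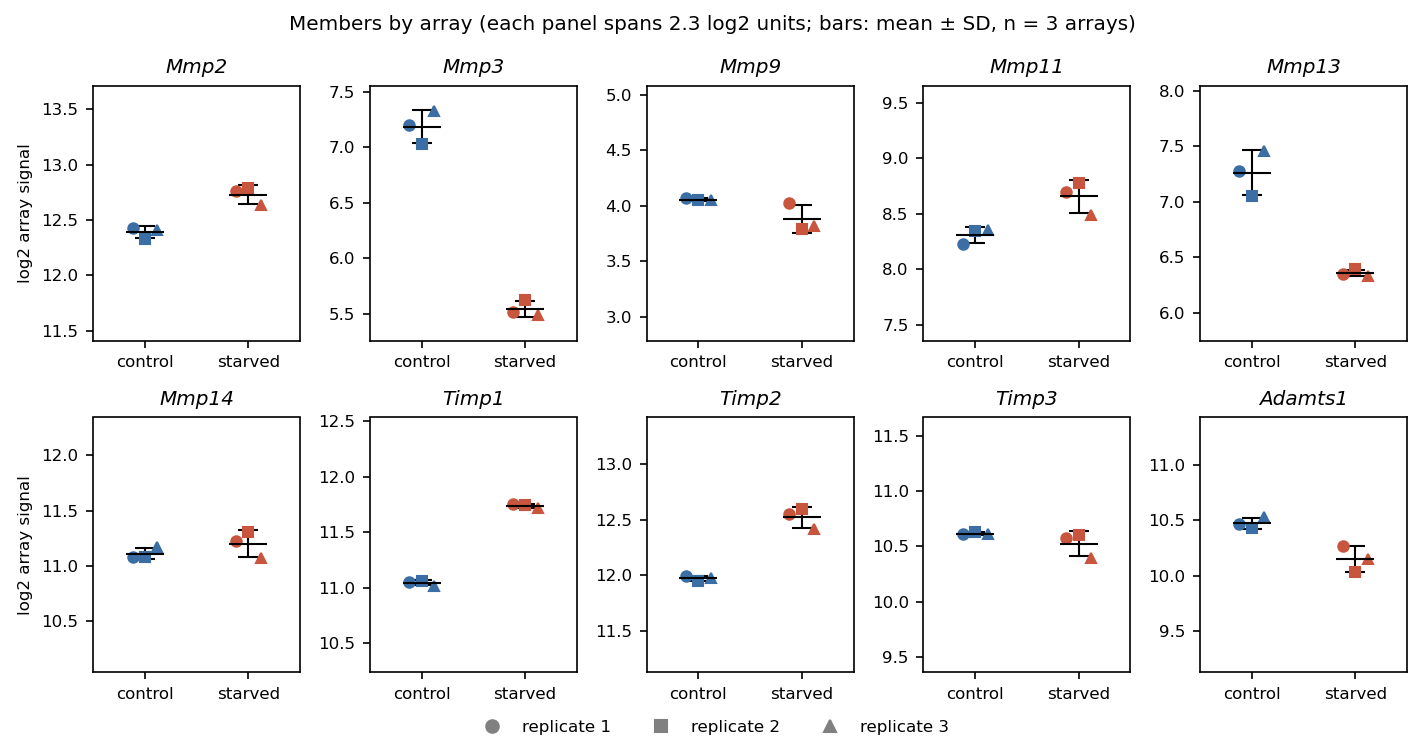
Log2 array signal of each member in the 3 control arrays (blue) and the 3 starved arrays (red), with a symbol for each replicate number and bars for the mean ± SD. Each gene is shown by its brightest probe set. Mmp3, Mmp13 and Adamts1 lie lower and Mmp2, Mmp11, Timp1 and Timp2 higher in every starved array, while the arrays of Mmp14 overlap.

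Levels depended on how the arrays were scaled against each other, which matters for the smaller differences. The poly-A spike-ins, foreign transcripts added in fixed amounts, lay 0.43 higher in starved arrays on the log2 scale, and the hybridization spike-ins 0.19 higher. Centring on them moved the median of all genes from -0.048 to -0.47 and to -0.24. Higher genes then made up 8.45% and 21.5% of all calls, against 50.1% in the values as deposited. Each direction is therefore one against the bulk of the genes on the array, and members whose direction or call turned are named below. In RNA pooled from many cells, fewer cells that make a transcript and less of it per cell cannot be told apart.

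Mmp3, or stromelysin, which cleaves proteoglycans and laminin and activates other metalloproteinase precursors, had the largest difference of the members. Its log2 signal was 7.21, 7.03 and 7.32 in the control arrays and 5.52, 5.62 and 5.48 in the starved arrays. Every starved array lay more than a log2 unit below every control array. The starved signals also lay below 6.15, the mean level under which a gene counted among the dimmest 40%. Folds are compressed at such dim signals, so the fold of Mmp3 is given with that limit. Mmp3 fell 3.13-fold, from 7.19 ± 0.15 to 5.54 ± 0.07 (SD, n = 3 arrays per group; log2 difference -1.64, SE 0.09, 95% CI -1.84 to -1.45, limma adjusted p = 6.14e-07).

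Mmp13, the main interstitial collagenase of mice, fell as well. Its signal was 7.28, 7.06 and 7.46 in control arrays and 6.35, 6.39 and 6.33 in starved arrays. The starved arrays lay close together, and the control arrays had the wider spread. Mmp13 fell 1.87-fold, from 7.26 ± 0.20 to 6.36 ± 0.03 (SD, n = 3; log2 difference -0.91, SE 0.10, 95% CI -1.13 to -0.68, limma adjusted p = 5.10e-05). Both genes have a single probe set on the array. Both falls held under each of the 4 scalings, with differences down to -2.07 for Mmp3 and -1.33 for Mmp13 with poly-A spike-ins.

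Mmp3 and Mmp13 lie in the same cluster of 10 metalloproteinase genes on mouse chromosome 9, with Mmp12 and Mmp1b between them in the order of the RefSeq gene table. Because both fell, their promoters are shown, as 250 bases before and 50 after the annotated start (RefSeq, GRCm38.p6, both on the plus strand, Mmp13 at chr9:7272264-7272563 and Mmp3 at chr9:7445572-7445871). Capitals mark matches to the AP-1 motif TGANTCA, to the TATA box TATAAA and to a head-to-head ETS motif, 2 inverted ETS cores 4 bases apart, each searched on both strands, with no overlap between matches.
Mmp13: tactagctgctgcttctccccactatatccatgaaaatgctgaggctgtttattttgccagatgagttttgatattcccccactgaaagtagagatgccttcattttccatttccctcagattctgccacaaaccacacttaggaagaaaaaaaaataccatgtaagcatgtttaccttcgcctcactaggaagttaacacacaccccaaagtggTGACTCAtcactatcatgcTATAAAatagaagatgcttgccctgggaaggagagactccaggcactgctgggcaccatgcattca
Mmp3: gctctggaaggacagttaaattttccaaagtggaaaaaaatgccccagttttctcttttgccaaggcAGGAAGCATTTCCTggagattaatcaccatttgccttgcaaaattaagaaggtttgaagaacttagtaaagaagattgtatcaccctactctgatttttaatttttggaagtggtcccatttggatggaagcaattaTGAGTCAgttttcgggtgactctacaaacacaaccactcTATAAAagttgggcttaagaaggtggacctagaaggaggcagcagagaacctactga

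AP-1, a dimer of Fos and Jun proteins, is a textbook regulator of these 2 genes. The AP-1 match begins 35 bases before the annotated start in Mmp13 and 46 bases before it in Mmp3. A TATA box follows each, beginning 16 bases before the annotated start in Mmp13 and 7 bases before it in Mmp3. These distances hold for the annotated starts, which were not checked. Promoter entries were matched for 8 of the 10 members, all but Mmp2 and Mmp9. The AP-1 motif was found in 2 of these 8 promoters, Mmp3 and Mmp13, and in 7.81% of 32851 promoters of the same length. The TATA box was found in 3 of the 8, those of Mmp3, Mmp13 and Adamts1, and in 13.6% of all. The head-to-head ETS motif was found in 1 of the 8, that of Mmp3, and in 0.116% of all. The motifs were chosen by hand and not drawn from a scan of all motifs, so these shares are no test of enrichment. A match describes the letters in this window and does not show that a factor binds there.

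The other 7 measured genes of the chromosome 9 cluster did not pass in limma, and 0 of them had an unadjusted p below 0.05. Mmp12, Mmp1b, Mmp1a, Mmp10, Mmp8, Mmp20 and Mmp7 differed by -0.22 to 0.03, and all 7 belonged to the dimmest 40% of genes on these arrays. Folds of such dim probe sets are compressed, so these values set no bound on a fall of their transcripts. The probe set of Mmp10, another stromelysin gene, gave 4.58 ± 0.04 in control and 4.45 ± 0.08 in starved cells (SD, n = 3; difference -0.13, limma adjusted p = 0.181).

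Mmp2 and Mmp14 work together at the cell surface, where Mmp14, a membrane-anchored collagenase, activates the Mmp2 precursor with Timp2 as an adaptor. Mmp2, which cuts gelatin and basement membrane collagen, gave 12.43, 12.33 and 12.41 in control and 12.77, 12.79 and 12.63 in starved arrays. All 3 starved arrays lay above all 3 control arrays. Mmp2 rose 1.27-fold (12.39 ± 0.05 to 12.73 ± 0.09, SD, n = 3; log2 difference 0.34, SE 0.07, 95% CI 0.17 to 0.50, limma adjusted p = 0.00398). Its second probe set differed by the same 0.34 (adjusted p = 0.00618 over all probe sets). The rise passed as deposited and with array medians, but not with hybridization spike-ins (0.15, adjusted p = 0.143), and it lay at -0.087 with poly-A spike-ins. It also did not pass limma's treat for a change beyond 1.2-fold (adjusted p = 0.553).

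Mmp14 did not pass. Its brighter probe set gave 11.08, 11.08 and 11.17 in control and 11.23, 11.31 and 11.07 in starved arrays. These ranges overlapped, since starved replicate 3 lay below every control array. The difference was 0.09 (SE 0.08, 95% CI -0.09 to 0.27, limma adjusted p = 0.379), from 0.039 without starved replicate 2 to 0.16 without starved replicate 3, and the dimmer probe set differed by -0.04 (adjusted p = 0.735 over all probe sets). With poly-A spike-ins Mmp14 lay at -0.33 and passed (adjusted p = 0.00407), and with hybridization spike-ins it lay at -0.095 (adjusted p = 0.362).

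Mmp11, also called stromelysin-3, is a stromal metalloproteinase activated inside the cell by furin. Its signal was 8.23, 8.34 and 8.35 in control and 8.70, 8.78 and 8.49 in starved arrays, without overlap. It rose 1.27-fold (8.31 ± 0.07 to 8.66 ± 0.15, SD, n = 3; log2 difference 0.35, SE 0.09, limma adjusted p = 0.00907). As for Mmp2, the call was lost with hybridization spike-ins (0.16, adjusted p = 0.153), and the value lay at -0.078 with poly-A spike-ins. In limma's treat beyond 1.2-fold it did not pass either (adjusted p = 0.596).

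Mmp9, the second gelatinase, was dim. Its brighter probe set gave 4.07, 4.05 and 4.05 in control and 4.03, 3.79 and 3.82 in starved arrays, among the dimmest 40% of genes. The starved arrays were all lower, with replicate 1 close to the controls. The difference of -0.18 (SE 0.08, 95% CI -0.35 to 0.0034) did not pass (limma adjusted p = 0.104). Without starved replicate 1 it was -0.25 and passed (adjusted p = 0.0170), and it also passed with centring on array medians (-0.23), hybridization spike-ins (-0.36) and poly-A spike-ins (-0.60). The second probe set of Mmp9 differed by -0.14 and did not pass (adjusted p = 0.219 over all probe sets).

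Adamts1 is a secreted protease with thrombospondin repeats that cuts the proteoglycans versican and aggrecan. It gave 10.47, 10.43 and 10.53 in control and 10.27, 10.03 and 10.15 in starved arrays. Its groups did not overlap, and its difference was a fall of 1.25-fold (10.47 ± 0.05 to 10.15 ± 0.12, SD, n = 3; log2 difference -0.32, SE 0.08, limma adjusted p = 0.00778). The fall held under the 4 scalings, from -0.32 as deposited to -0.75 with poly-A spike-ins, but did not pass when tested for a change beyond 1.2-fold (limma's treat, adjusted p = 0.725). Its substrate gene Vcan also fell, by 0.53 (adjusted p = 0.000818).

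Timp1, a secreted inhibitor of most soluble metalloproteinases, rose most among the members. Its single probe set gave 11.05, 11.06 and 11.02 in control and 11.75, 11.75 and 11.72 in starved arrays. The arrays of each group lay within 0.05 of each other, far less than the gap between the groups. Timp1 rose 1.62-fold (11.04 ± 0.02 to 11.74 ± 0.02, SD, n = 3; log2 difference 0.69, SE 0.06, 95% CI 0.55 to 0.84, limma adjusted p = 1.84e-05). It was the single member called higher under all 4 scalings, with 0.27 under poly-A spike-ins (adjusted p = 0.0176).

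Timp2 inhibits metalloproteinases and also takes part in Mmp2 activation. Its brightest probe set gave 11.99, 11.95 and 11.98 in control and 12.55, 12.60 and 12.42 in starved arrays. The groups were well apart on this probe set, with a 1.46-fold rise (11.97 ± 0.02 to 12.52 ± 0.09, SD, n = 3; log2 difference 0.55, SE 0.07, limma adjusted p = 0.000182). The call was lost with poly-A spike-ins (0.12, adjusted p = 0.244).

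The probe sets of Timp2 disagreed. Of 6, 2 were higher and 4 did not pass, in the test over all probe sets. The second-brightest gave 12.26, 12.20 and 12.18 in control and 12.21, 12.18 and 12.28 in starved arrays. These ranges overlapped, and the difference was 0.011 (95% CI -0.15 to 0.17, adjusted p = 0.914). Its mean over all arrays was 12.22, and that of the brightest probe set 12.25, so the choice of the brightest decided the call. The other probe set that was higher differed by 0.42 (adjusted p = 0.00833), and the remaining 3 differed by -0.08 to 0.17. With the mean of its probe sets Timp2 differed by 0.17 and did not pass (adjusted p = 0.0964).

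Timp3 differs from the other inhibitors in binding to the matrix and in blocking Adam and Adamts proteases as well. Its brightest probe set gave 10.61, 10.63 and 10.61 in control and 10.58, 10.60 and 10.40 in starved arrays. All starved arrays lay below the controls, though replicates 1 and 2 only slightly. The difference of -0.09 (SE 0.08, 95% CI -0.26 to 0.08) did not pass (limma adjusted p = 0.368), and without starved replicate 3 it was -0.026. It passed with hybridization spike-ins (-0.28, adjusted p = 0.0173) and with poly-A spike-ins (-0.52, adjusted p = 0.000102).

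All 4 probe sets of Timp3 differed downward, by -0.09 to -0.55, and 1 passed. That one gave 9.32, 9.37 and 9.31 in control and 8.38, 8.76 and 9.22 in starved arrays. Its starved arrays spread far wider than its controls (SD 0.42 against 0.03), and replicate 1 was lowest. Its difference of -0.55 (adjusted p = 0.0320 over all probe sets) kept its size but lost its call without control replicate 1, 2 or 3 (-0.55, -0.53 and -0.56, adjusted p = 0.0683, 0.0831 and 0.0707). It also lost the call without starved replicate 1 (-0.34, adjusted p = 0.0670) or 2 (-0.54, adjusted p = 0.0826), and without starved replicate 3 it was -0.76 and passed (adjusted p = 0.00153). With the mean of the 4 probe sets Timp3 fell by 0.27 (adjusted p = 0.0439). The plot of Timp2 and Timp3 probe sets shows how far the probe sets of 1 gene lay apart.

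**Figure D2:**
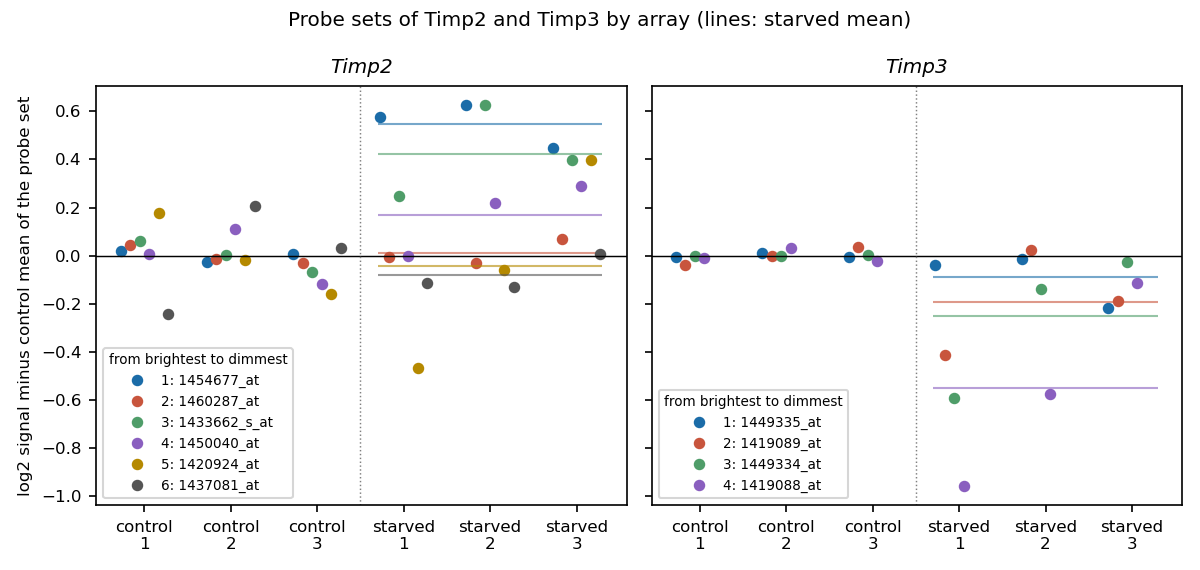
Each probe set of Timp2 (6) and Timp3 (4), as log2 signal minus its own control mean, in the 3 control and 3 starved arrays. Lines are starved means, which run from -0.08 to 0.55 for Timp2 and from -0.55 to -0.09 for Timp3.

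RNA quality, read as the 5' minus the 3' control probe set of beta-actin, was lower in starved arrays (-0.13, -0.14 and -0.060 on the log2 scale) than in control arrays (-0.012, -0.027 and -0.011). For Gapdh the same measure overlapped, from -0.022 to 0.095 in starved and from -0.030 to 0.023 in control arrays. The part of RNA quality in the difference of any member was not tested, nor its part in the differences between probe sets of Timp2 and Timp3. Members with a single probe set allow no comparison between probe sets. Across all 21 probe sets of the members 6 were higher, 4 lower and 11 did not pass, where 40.9% of all probe sets with 1 gene passed, 20.4% higher and 20.5% lower. The plot of every probe set gives each with its interval.

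**Figure D3:**
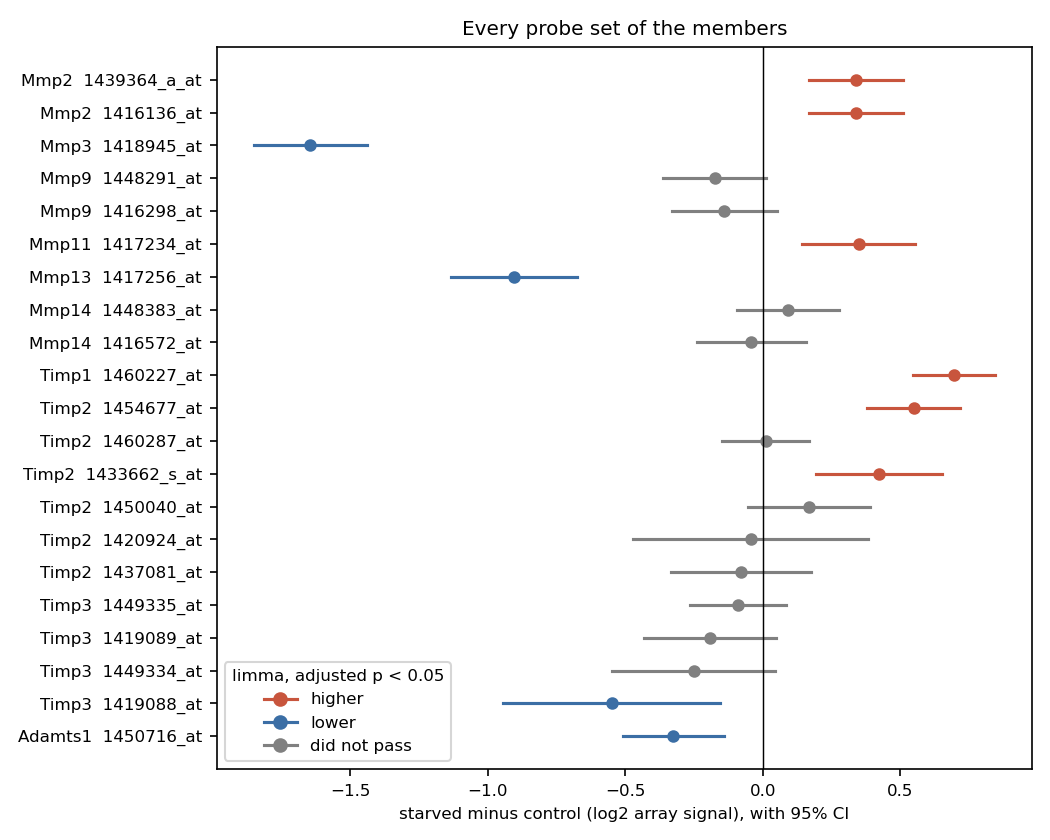
Starved minus control on the log2 scale for all 21 probe sets of the members, with 95% confidence intervals from limma. Red and blue mark probe sets higher and lower at an adjusted p below 0.05 over all probe sets, and grey those that did not pass. Mmp3 at -1.64 and Mmp13 at -0.91 lie farthest below 0, and Timp1 at 0.69 farthest above.

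**Figure D4:**
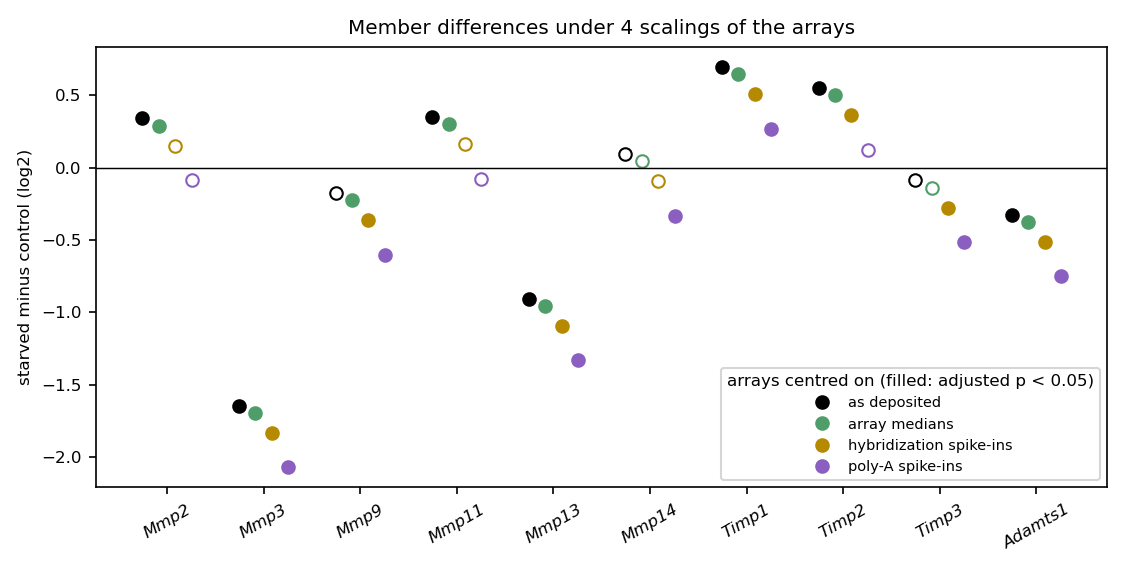
Starved minus control on the log2 scale for each member, with the arrays as deposited (black) or centred on their medians (green), hybridization spike-ins (ochre) or poly-A spike-ins (purple). Filled points passed an adjusted p of 0.05. Mmp3, Mmp13 and Adamts1 stayed lower and Timp1 higher under all 4, while Mmp2, Mmp11 and Mmp14 crossed 0.

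The RNA signals of a protease and an inhibitor can be compared within an array, where a shift common to the whole array cancels. Protein levels and enzyme activity were not measured. The log2 signal of the protease minus that of the inhibitor was compared for 8 pairs with known biochemistry. Only its change is read, since signals of different probe sets are not on a common scale. An exact two-sided permutation test of 3 arrays against 3 cannot go below p = 0.1, and all 8 pairs had p = 0.1 (0.1 after Benjamini-Hochberg adjustment over the 8). Their groups did not overlap, as for 54.0% of single genes, and the pairs are not independent, since 4 share Timp1, 2 Timp2 and 2 Timp3. With the mean of probe sets the exact permutation p was 0.3 for Mmp2 to Timp2 (0.17) and 0.9 for Adamts1 to Timp3, and 0.1 for the other pairs.

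The ratio of Mmp3 to Timp1 moved most. It was -3.84, -4.03 and -3.69 on the log2 scale in control arrays and -6.23, -6.13 and -6.23 in starved arrays, a 5.06-fold decrease (log2 difference -2.34). The dim starved signals of Mmp3 limit this fold too. Mmp13 to Timp1 dropped 3.03-fold (-1.60) and Mmp11 to Timp1 1.27-fold (-0.35). Mmp9 to Timp1 lay at -0.87, of which 0.69 is the rise of Timp1, and no fold is given because Mmp9 was dim and did not pass by itself. Mmp11 and Timp1 were thus both called higher and rose by unequal amounts. For these 4 pairs the ratio to Timp1 was lower in each starved array than in each control array.

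The remaining pairs involve Timp2 and Timp3, whose probe sets differed. Adamts1 to Timp3 changed by -0.24, by -0.14 without starved replicate 2 and by -0.055 with the mean of probe sets. Mmp14 to Timp3 changed by 0.18, and by 0.30 with the mean of probe sets. Mmp14 to Timp2 changed by -0.46 and Mmp2 to Timp2 by -0.21 with the brightest Timp2 probe set. Both turned with the second-brightest one, to 0.081 (exact permutation p = 0.6) and 0.33 (p = 0.1), so no direction is given for ratios to Timp2. The plot of ratios shows the 8 pairs on 1 scale.

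**Figure D5:**
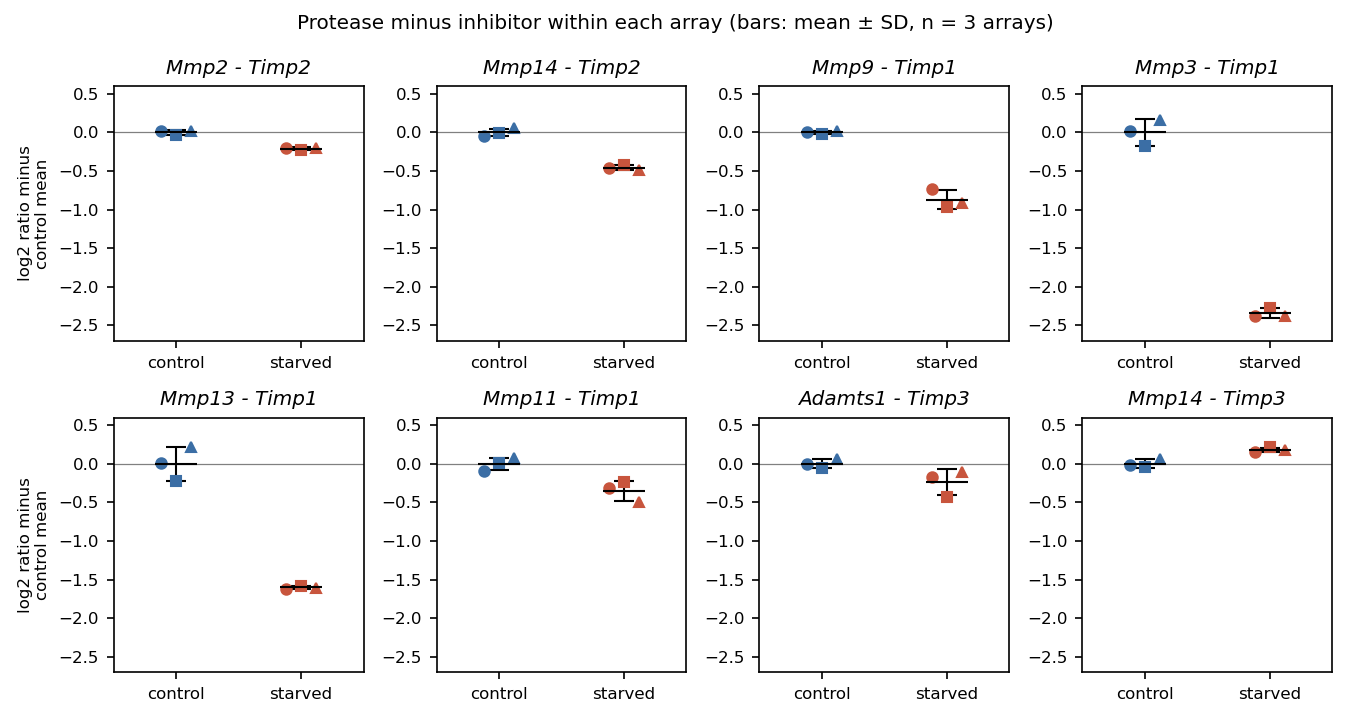
Log2 ratio of protease to inhibitor in each array, minus the control mean of that pair, for 8 pairs, with control arrays in blue, starved arrays in red and bars for the mean ± SD (n = 3 arrays). Mmp3 to Timp1 drops by 2.34 and Mmp13 to Timp1 lies at -1.60. The ratios to Timp2 rest on its brightest probe set and turn direction with the second-brightest.

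The other members of both families were mostly dim. Of 13 further genes, 12 metalloproteinases and Timp4, 1 was higher, 0 lower and 12 did not pass in limma. Their median was -0.13, and 11 of the 13 were among the dimmest 40% of genes. With hybridization spike-ins 0 were higher and 9 lower, and with poly-A spike-ins 0 and 12. At an unadjusted p below 0.05 in the values as deposited, 1 of the 13 was lower, Mmp24 (-0.22), named after its value was seen. Mmp16, a membrane-anchored metalloproteinase, was the one that rose, from 6.75 ± 0.09 to 7.15 ± 0.17 (SD, n = 3; difference 0.40, limma adjusted p = 0.00696), though it lay at -0.027 with poly-A spike-ins.

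A list of 19 further proteases held Adam and other Adamts genes together with Bmp1, Tll1 and Pappa, which belong to neither family. Of the 19, 5 were higher, 3 lower and 11 did not pass, and their median was -0.040. Bmp1 and Tll1 were among the higher genes, and Pappa did not pass. With hybridization spike-ins 4 were higher and 8 lower, and with poly-A spike-ins 3 and 12. Adamts5, an aggrecan-cutting relative of Adamts1, rose by 1.08 (adjusted p = 7.10e-06), opposite to Adamts1 itself, and Adam12 rose by 0.70 (adjusted p = 0.000101). The sheddases Adam19 and Adam10 fell by 0.90 and 0.64 (adjusted p = 1.48e-05 and 0.000203). These 4 directions held under the 4 scalings.

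Among 27 genes that activate, bind or restrain metalloproteinases 5 were higher, 6 lower and 16 did not pass; their median was -0.089. With hybridization spike-ins 3 were higher and 14 lower, and with poly-A spike-ins 2 and 22. The thrombospondins, matrix glycoproteins that bind metalloproteinases, went apart, with Thbs1 up by 1.00 (adjusted p = 8.63e-06) and Thbs2 down by 0.93 (adjusted p = 7.21e-06). Cldn1 rose by 0.69, and Bsg, also known as the metalloproteinase inducer EMMPRIN, fell by 0.50 (adjusted p = 0.000154). These 4 directions also held under the 4 scalings.

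Genes for the matrix proteins that these enzymes cut were higher in 26 of 38 cases, lower in 3 and did not pass in 9. Their median was 0.50. With poly-A spike-ins 10 were higher and 10 lower, with a median of 0.075. The collagen-binding proteoglycan Fmod rose by 2.34 (adjusted p = 4.68e-07) and periostin, Postn, by 1.41 (adjusted p = 1.50e-06). Lama1, a basement membrane laminin chain, fell by 0.65 (adjusted p = 0.000365), as did Vcan, given above with Adamts1.

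Of 27 factors that act on metalloproteinase promoters 11 were higher, 5 lower and 11 did not pass. Their median was 0.054. With poly-A spike-ins 4 were higher and 14 lower, with a median of -0.37. Of the 7 Fos and Jun family genes, which encode AP-1 subunits and were named as a family after their values were seen, Fosl1 fell by 1.11 (adjusted p = 1.68e-05) and Fos by 0.33, Fosl2 rose by 0.79 and Junb by 0.53, and Jun (-0.17), Jund (-0.26) and Fosb (0.11) did not pass. Fosl1, Fos and Fosl2 kept their calls under the 4 scalings, while Junb lay at 0.10 with poly-A spike-ins and did not pass (adjusted p = 0.323). Jun and Jund passed as lower with both spike-in scalings, and Jun also with array medians (-0.22, limma adjusted p = 0.0241). Relb and Nfkb2, subunits of NF-kappaB, rose by 2.08 and 1.82, and Cebpb fell by 0.60.

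Of 28 signalling genes that act on metalloproteinase expression 10 were higher, 7 lower and 11 did not pass. Their median was 0.076. With poly-A spike-ins 2 were higher and 18 lower, with a median of -0.35. Il6, a cytokine of inflamed connective tissue, fell from 7.56 ± 0.01 to 7.03 ± 0.20 (SD, n = 3; difference -0.53, limma adjusted p = 0.00151), and the kinase gene Mapk14 fell by 0.39. Tgfb2, a ligand of the TGF-beta receptors, rose by 0.90 (adjusted p = 0.000255), and Egfr by 0.66.

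The cells carried the markers of their label. Of 14 fibroblast markers 12 lay outside the dimmest 40% of genes, 8 were higher, 3 lower and 3 did not pass (0 higher and 7 lower with poly-A spike-ins), with Col3a1 and Col5a1 higher by 0.59 and 0.61 and the dim markers Thy1 and Fap lower by 0.40 and 0.45. Markers of other cells were among the dimmest 40% in 9 of 10 cases for macrophages and blood, 7 of 7 for endothelium, 7 of 8 for epithelium and 7 of 8 for cartilage and bone. In these lists Cd68 (0.44), Cdh1 (0.91) and Col10a1 (0.92) were higher and Cd14 (-0.46), Coro1a (-0.24), Kdr (-0.27) and Pecam1 (-0.27) lower.

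Likeness to Timp1 and Mmp3, the members with the largest rise and the largest fall, was measured as the root-mean-square distance over the 6 arrays, after subtracting each gene's control mean, among genes outside the group. Nearest to Timp1 were Zfp385a, Bsdc1 and Tsc1, at distances of 0.020, 0.030 and 0.032 log2 units. Nearest to Mmp3 were Dido1, Slc16a1 and Kng1, at 0.058, 0.085 and 0.088. Slc16a1, a lactate and pyruvate carrier, fell by 1.68 (adjusted p = 1.33e-07), and Dido1 fell by 1.60. With 2 groups of arrays, such a distance mainly picks genes with a similar difference between the groups.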

How the data were processed

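Total RNA was biotin-labelled and hybridised to 6 arrays, per the labels' protocols. The authors deposited log2 signals made with affy and RMA, per the submitters' processing notes, with versions not given in the sources used here. In RMA, background is corrected, all arrays get a common distribution (quantile normalization) and probes are combined into 1 value per probe set, so a change in total mRNA per cell is removed before any test. Array medians ran from 6.73 to 6.81. Signals hold no read depth, and the number of arrays limits the precision.

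Gene names came from the platform annotation. Of 22690 probe sets, 64 were controls, 691 had several genes and 1555 none listed, and these were left out. A gene took its probe set with the highest mean over all arrays, which gave 12393 genes with no filter on dim ones. Groups came from sample titles. Starved was compared with control in limma 3.58.1 under R 4.3.3 (lmFit and eBayes, two-sided) without covariates. P-values were adjusted by Benjamini-Hochberg over the 12393 genes, and separately over 20380 probe sets. Exact permutation tests used scipy 1.17.1, and plots matplotlib 3.10.9. The fit was tested on simulated data.

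The members, pairs and 11 context lists (199 of 232 listed genes measured, members included) were chosen with earlier results of these data known. Named genes are all members, up to 2 risen and 2 fallen genes per list with the smallest adjusted p, the 3 genes most like the most risen and the most fallen member, and the genes of the chromosome 9 cluster. The choice of Mmp24 and of the remaining Fos and Jun genes followed a look at their values. Alternatives covered the choice of probe set, a filter on dim genes, scaling, variance models, array weights, a replicate block, each array left out, a stricter threshold and a test for changes beyond 1.2-fold (limma's treat).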

Additional observations from a re-analysis of the deposited data

How the results depend on the processing

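Scaling and the test for a minimum fold moved the counts by over 1.5 times. With poly-A spike-ins 10181 genes passed in place of 5463, and of the members 1 was higher and 6 lower. With hybridization spike-ins 2 members were higher and 5 lower. An error in the spike-in shift of an array would move every gene there by the same amount. With limma's treat 2253 genes and 2 higher members (Timp1 and Timp2) passed, Mmp3 and Mmp13 stayed the 2 lower ones, and Mmp2, Mmp11 and Adamts1 lost their calls. Reversed values were those of Mmp2 (-0.087), Mmp11 (-0.078) and Mmp14 (-0.33) with poly-A and of Mmp14 (-0.095) with hybridization spike-ins. The ratio of Mmp2 to Timp2 reversed with the mean of probe sets (0.17), and the ratios of Mmp2 and Mmp14 to Timp2 did so with the second-brightest Timp2 probe set (0.33 and 0.081), an alternative chosen after seeing the data.

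Leaving out each array in turn left 4 members higher and 3 to 4 lower, with 4541 to 5317 genes passing, and the difference of Mmp3 between -1.72 and -1.58, of Mmp13 between -1.01 and -0.81 and of Timp1 between 0.68 and 0.71. Same-numbered control and starved arrays did not deviate together (correlations -0.0046, -0.022 and 0.0021). The other combinations lay between -0.047 and 0.052. With 3 arrays per group, such correlations cannot exclude a pairing by design. With the replicate number as a block 5274 genes passed, and the same 4 higher and 3 lower members did.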
